A study of Drosophila melanogaster with 30 samples.

Results

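Virgin males of Drosophila melanogaster whose line met poor food a second time were compared with males whose line had met it once. The comparison used 9 of the 30 arrays of the study, 3 in each of 3 groups chosen by their diet label, and all 15309 probe sets of the Drosophila Gene 1.0 array. Group names give the food of each generation in turn, R (rich) or P (poor). P (label F0-Poor) were F0 males that developed on poor food. P-P (F0-Poor_F1-Poor) were F1 males on poor food whose parents had also developed on it. P-R-P (F0-Poor_F1-Rich_F2-Poor) were F2 males on poor food with rich-raised parents and poor-raised grandparents. All 3 groups developed on poor food themselves, descend from a laboratory stock founded by field-collected flies, share a poor-raised F0 generation, and were frozen directly. The other 21 arrays hold the remaining 7 diet histories of the study, among them F0 males raised rich (R, label F0-Rich). They entered the statistical model and are used below to choose genes that follow poor food and to set the generation beside the repetition. The sources used here do not give the foods' compositions, the ages of the flies or the number of flies per sample. Whether the 3 samples of a group were reared in separate cultures is not labelled, so every p-value rests on a spread between samples that could be technical.

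The food on which a fly develops sets its adult stores and the activity of genes for digestion, for detoxification and for the building of the cuticle. The fat body, the fly's counterpart of liver and adipose tissue, and the midgut carry much of this response, and insulin and TOR signalling link it to growth. Food met by parents or grandparents can also alter traits of the offspring in flies, through the egg, the sperm or the food itself. Repeated poor food was therefore compared with a single poor generation to ask whether the adult transcriptome differs when the line has met that food before. In these groups the second encounter also comes 1 or 2 generations later than the first, so repetition and generation coincide.

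Levels are the deposited normalized values on the log2 scale. The base of the logarithm is not stated, and with natural logarithms every difference given here would be 1.44 times larger. Differences are given with the standard error, and intervals are 95% intervals, of a limma model of 10 group means fitted to all 30 arrays. P-values were adjusted over the 15309 probe sets by the Benjamini-Hochberg method, and a gene was called at an adjusted p under 0.05. In RNA from whole flies, fewer cells of a type and less RNA per cell cannot be told apart.

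The 9 arrays carried transcripts of the testis and accessory gland and lacked those of the ovary. The 46 testis genes averaged at least 3.79 per array and the 62 accessory gland genes 4.63 to 4.95, while the 38 female and ovary genes averaged 0.56 to 0.66. The 9 Y-linked fertility genes averaged 0.23 to 0.49, below the array medians, so they could not serve as male markers. On the 21 other arrays the female and ovary list reached 2.63. Replicate 2 of R-P (F0-Rich_F1-Poor) and replicate 2 of P-R-R (F0-Poor_F1-Rich_F2-Rich) hold ovary transcripts, and replicates 1 and 3 of R-R (F0-Rich_F1-Rich) are low in cuticle and Lsp2 transcripts. None of these 4 belongs to the 3 groups compared, but they widen the shared spread of the genes they touch. Array medians ran from 0.82 to 0.94. Across probe sets, arrays of 1 group correlated at r = 0.978 to 0.985 in 9 pairs, and arrays of different groups among these 3 at 0.979 to 0.987 in 27 pairs. Arrays of the same diet history were thus about as alike as arrays of different histories.

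Genes that poor food lowers or raises lay, in males on poor food for the second time, near their levels in males whose line had met it once. These genes were chosen on 12 arrays that enter neither comparison, as the own-food difference of males with rich-raised ancestors (R-P against R-R in F1 and R-R-P against R-R-R in F2). On those arrays 75 probe sets were lower on poor food, 0.49 percent of those tested, by 0.44 to 3.04 with a median of 0.84. Another 20 were higher, 0.131 percent, by 0.41 to 1.64 with a median of 0.59. The list holds 85 probe sets with a single gene symbol. In P minus R, a comparison of F0 males that played no part in this choice, 71 of the 75 lay below 0 and 12 were called lower, against 0.098 percent of all probe sets. Of the 20, 18 lay above 0 and 4 were called higher, against 0.0849 percent. Sizes there were smaller, with medians of -0.44 and 0.40, and sizes estimated on the arrays that select a list tend to be too large.

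None of the 95 was called in P-P minus P, where 0.00653 percent of all probe sets were called, and none in P-R-P minus P, where 0 percent were. The 75 lowered probe sets had a median difference of 0.04 in P-P minus P, with 40 above and 35 below 0, and of 0.05 in P-R-P minus P, with 42 above and 33 below. All probe sets had medians of -0.01 and -0.02 in the same comparisons. The 20 raised probe sets had medians of 0.02 and -0.04. An unadjusted p under 0.05 was reached by 2 of the 75 in P-P minus P and 6 in P-R-P minus P, and by 0 and 3 of the 20, against 3.92 and 4.77 percent of all probe sets. In P-P minus P the 2 were higher, against 1.48 percent. In P-R-P minus P, 4 of the 75 were higher and 2 lower, and all 3 of the 20 were lower. The shares of all probe sets there were 1.63 percent higher and 3.14 percent lower. Those 4 and 3 lay in the direction of rich food.

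**Figure D1:**
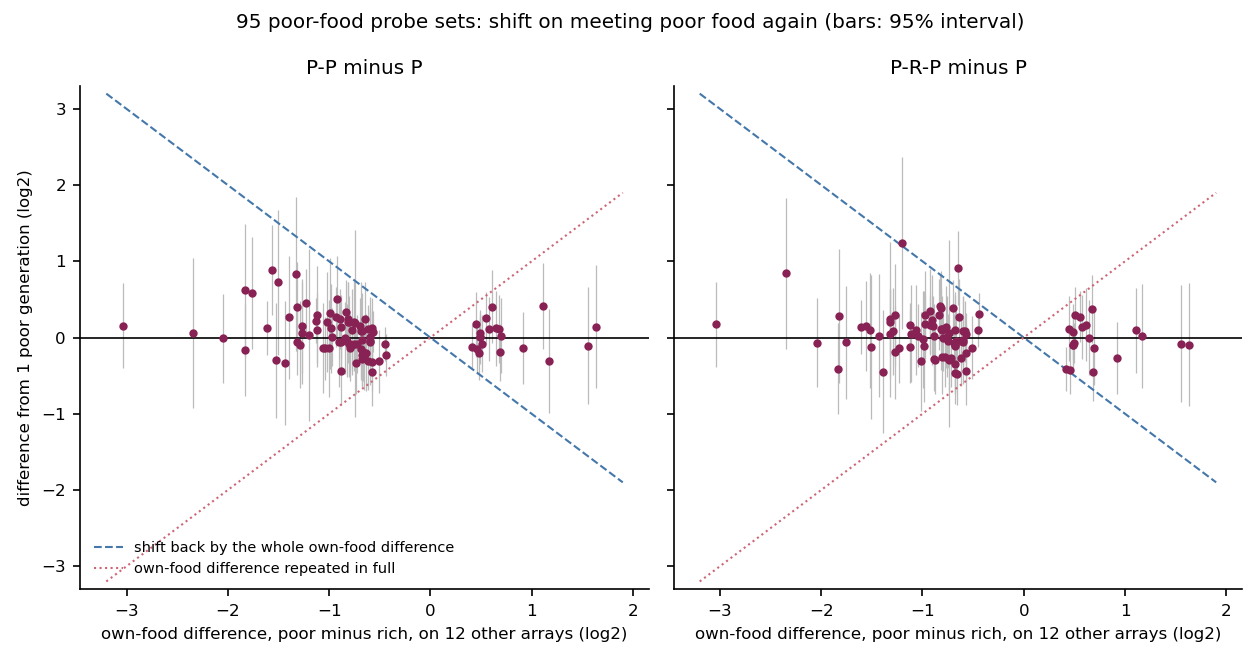
Difference from P for each of the 95 poor-food probe sets (vertical axis, log2, bars are 95% intervals) in P-P (left) and P-R-P (right), against its own-food difference on the 12 arrays that chose it (horizontal axis, log2). The dashed line marks a shift back by the whole own-food difference and the dotted line a further shift as large as the own-food difference; most intervals lie around 0 and reach neither line.

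The plot of each probe set's second shift against its own-food difference shows how far the data bound a change. In P-P minus P, the interval excluded a shift back by the whole own-food difference for 68 of the 75 lowered and 18 of the 20 raised probe sets. It excluded a further shift of the same size for 64 and 17 of them. In P-R-P minus P, a whole shift back was excluded for 67 and 17, and a further shift of that size for 65 and 15. The own-food difference is the larger measure of the response, and P lay only 0.44 below R by the median of the lowered list, so these counts do not bound a return to the level of R. Smaller changes are less well bounded: a shift back by 0.5 times the own-food difference was excluded for 35 and 6 in P-P minus P and for 33 and 5 in P-R-P minus P. When replicate 2 of R-P and replicates 1 and 3 of R-R were left out of the choice, the list fell to 38 probe sets, 30 lower and 8 higher, of which 29 were in the longer list. A whole shift back was then excluded for 28 of 30 and 7 of 8 in P-P minus P, and for 30 of 30 and 8 of 8 in P-R-P minus P.

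Set directly against R, whose arrays did not choose the list, most of these probe sets lay on the poor side in the repeats, as in P. Of the 75 lowered probe sets, 64 were below R in P-P, with a median of -0.44, and 67 in P-R-P, with a median of -0.57, beside 71 and -0.44 in P. In P-P, 9 were called lower than R, against 0.111 percent of all probe sets, and in P-R-P 9, against 0.105 percent. At an unadjusted p under 0.05, 39 were lower than R in P-P and 42 in P-R-P, against 4.46 and 5.53 percent of all probe sets, so for the remaining 36 and 33 a level equal to or above that of R was not excluded. Of the 20 raised probe sets, 17 were above R in each repeat, with medians of 0.44 and 0.32, and 3 and 2 were called higher, against 0.0784 and 0.105 percent. At an unadjusted p under 0.05, 10 and 8 of them were higher, against 2.61 and 2.9 percent. On the opposite side at that threshold, 1 of the 75 was above R in P-P and 3 in P-R-P, against the same 2 shares. Of the 20, 0 and 2 were below R, against 4.46 and 5.53 percent. In P minus R, 0 of either list lay on the opposite side at that threshold. These comparisons with R share the R arrays with P minus R.

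CG16898, of a family related to ecdysteroid kinases, had the largest own-food difference. It read 5.37, 4.83 and 5.27 in R, and 2.75, 1.95 and 2.54 in P. On the second poor food it read 2.69, 2.04 and 2.98 in P-P and 2.85, 2.31 and 2.60 in P-R-P. The arrays of the 3 poor-raised groups overlap one another, and all 9 lie below those of R. The difference from P was 0.16 ± 0.27 in P-P (interval -0.40 to 0.72) and 0.17 ± 0.27 in P-R-P (-0.39 to 0.73), against -2.74 for P minus R.

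Genes of xenobiotic metabolism, which modify or conjugate foreign compounds, make up 12 of the 75 lowered probe sets. AOX1, an aldehyde oxidase gene, read 5.02, 5.13 and 5.46 in R, 3.69, 3.64 and 3.56 in P, 3.88, 3.90 and 3.47 in P-P, and 3.72, 3.70 and 3.90 in P-R-P. The 9 poor-raised arrays spanned less than the gap between them and R, and those of P-R-P all lay just above P. Its differences from P were 0.12 ± 0.17 (interval -0.23 to 0.47) and 0.14 ± 0.17 (-0.21 to 0.50). The cytochrome P450 gene Cyp6d2 differed from P by -0.01 (-0.60 to 0.58) in P-P and by -0.07 (-0.65 to 0.52) in P-R-P, while P minus R was -1.70. The 5 P450 genes of the list (Cyp28a5, Cyp4e3, Cyp6a23, Cyp6d2 and Cyp9b2) lay between -0.10 and 0.15 in P-P minus P, and between -0.26 and 0.39 in P-R-P minus P. The 5 glutathione S-transferase genes, GstD1, GstD2, GstD5, GstE1 and GstE7, lay between -0.34 and 0.06 in P-P minus P and between -0.13 and 0.84 in P-R-P minus P. The highest of these is GstD2, which read 1.22, 1.79 and 0.65 in P and 2.56, 1.85 and 1.78 in P-R-P. Its arrays spread widely, the lowest P-R-P array lay just under the highest of P, and the interval of its difference ran from -0.14 to 1.83.

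**Figure D2:**
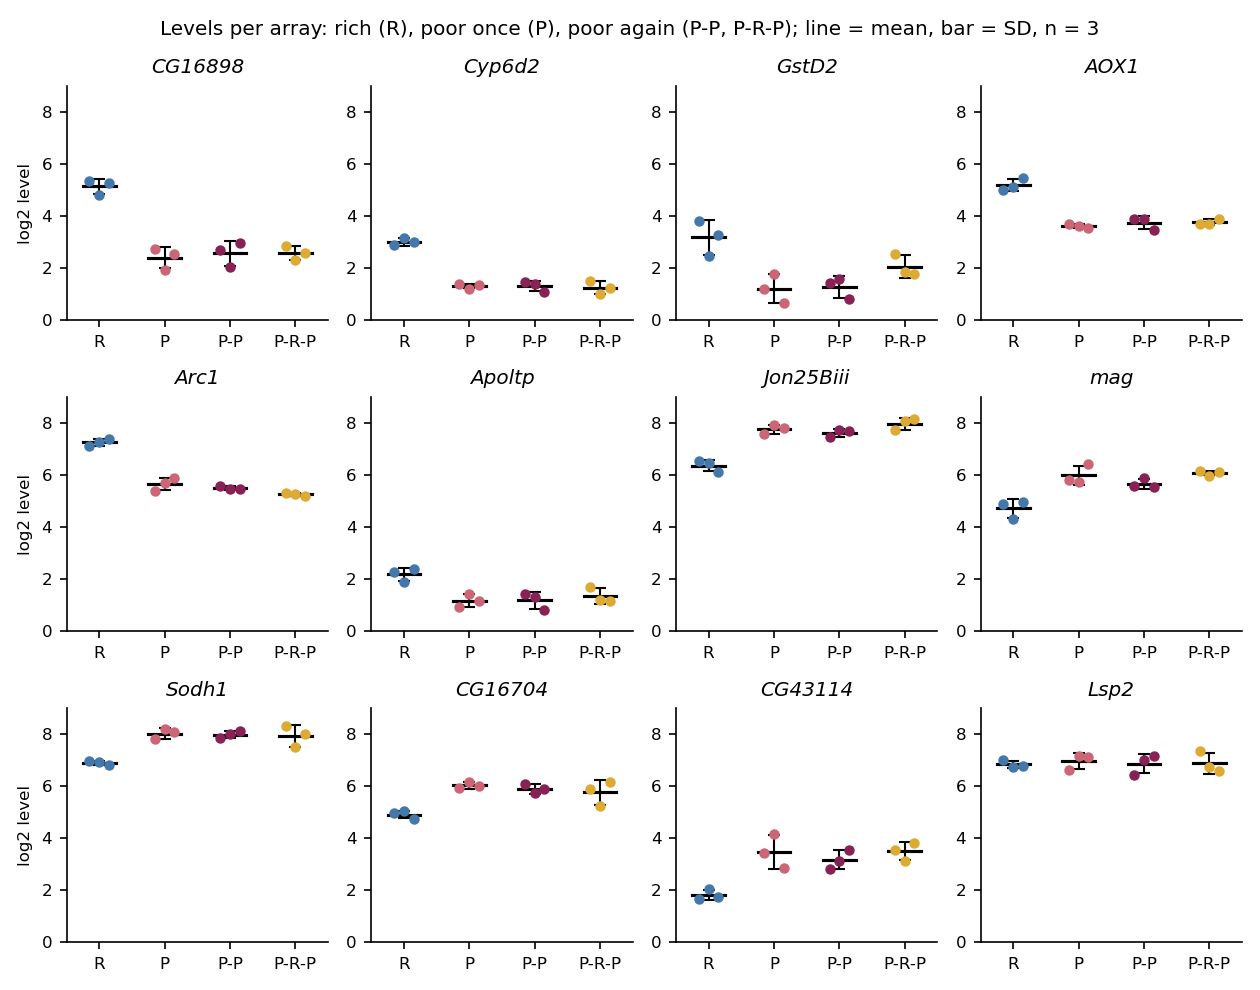
Log2 level on each array of 12 genes in R, P, P-P and P-R-P (3 arrays each, horizontal line = mean, bar = SD). Cyp6d2, AOX1 and Arc1 lie lower, and Jon25Biii, mag and Sodh1 higher, on all 9 poor-raised arrays than on the 3 of R, and P-P and P-R-P overlap P except in P-R-P for AOX1, just above P, and Arc1, below it.

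Arc1, which encodes a protein that forms virus-like capsids in neurons, read 7.11, 7.29 and 7.39 in R and 5.41, 5.71 and 5.88 in P. In P-P it read 5.58, 5.47 and 5.46, and in P-R-P 5.32, 5.27 and 5.19. The P-P arrays lie within the range of P, and the P-R-P arrays lie below it. The differences were -0.16 ± 0.29 and -0.41 ± 0.29, and neither was called. Apoltp, the apolipoprotein of the lipid transfer particle, differed from P by 0.01 (-0.38 to 0.39) and 0.18 (-0.20 to 0.56), against -1.01 for P minus R. The sugar transporter gene CG3285, with -1.82 in P minus R, gave -0.05 and 0.20. The genes furthest above P among the lowered were CG9568 (0.89, interval 0.30 to 1.48), CG10912 (0.83), lectin-37Da (0.72), CG14125 (0.62) and mat (0.58) in P-P. In P-R-P they were whe (1.24, interval 0.11 to 2.37) and GstD2. None of these was called.

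On the list of genes that poor food raises, CG43114 differed from P by -0.31 and 0.02 in the repeats, where P minus R was 1.67, and the Kunitz-type inhibitor gene CG16704 by -0.13 and -0.27, where it was 1.12. Lsp2, a storage protein gene of the fat body, and Acp1, an adult cuticle protein gene, had larger spreads: the differences were -0.11 ± 0.37 and -0.08 ± 0.37 for Lsp2, and 0.14 ± 0.39 and -0.09 ± 0.39 for Acp1. Both are among the transcripts that are low on replicates 1 and 3 of R-R, arrays that helped to choose the list, and in P minus R they differed by 0.13 and 0.40 with no call.

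The digestive and metabolic genes Jon25Biii, Sodh1 and mag are not on the list. They are described because P lay above R, in a comparison that uses the same P arrays against which the repeats are set. Jon25Biii, which encodes a digestive serine protease, read 6.53, 6.45 and 6.12 in R and 7.57, 7.92 and 7.80 in P. It read 7.45, 7.72 and 7.69 in P-P and 7.72, 8.06 and 8.14 in P-R-P. All 9 poor-raised arrays are above R, and P overlaps both repeats, with differences from P of -0.14 ± 0.23 and 0.21 ± 0.23. Sodh1, a sorbitol dehydrogenase gene, differed from P by -0.04 (-0.46 to 0.37) and -0.08 (-0.50 to 0.33), where P minus R was 1.12. The gut lipase gene mag gave -0.31 (-0.79 to 0.17) and 0.09 (-0.39 to 0.57), where P minus R was 1.27. Across all groups, none of these genes separated rich-raised from poor-raised arrays. Jon25Biii read 7.55, 6.29 and 7.31 in rich-raised R-R, which overlaps P-P. Sodh1 read 7.85, 7.60 and 7.83 in rich-raised R-R-R, which overlaps P at 7.81, 8.19 and 8.06. The level of mag did not follow poor food in every group. It read 5.28, 4.46 and 4.82 in R-P, with a lower mean than R-R at 5.56, 4.96 and 4.84. In rich-raised P-R males it read 5.83, 5.69 and 5.05, which overlaps P-P at 5.58, 5.90 and 5.54.

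Averaged over the lowered list, the 3 arrays of R read 3.25 to 3.42 and those of P 2.71 to 2.85. P-P read 2.73 to 2.99 and P-R-P 2.69 to 2.88, so the 3 poor-raised groups overlap and lie below R. Males of the same poor-raised line that were themselves raised rich read 3.23 to 3.45 in F1 (P-R) and 3.04 to 3.37 in F2 (P-R-R). The raised list averaged 3.72 to 3.85 in R, 4.09 to 4.47 in P, 4.23 to 4.28 in P-P and 4.03 to 4.34 in P-R-P.

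**Figure D3:**
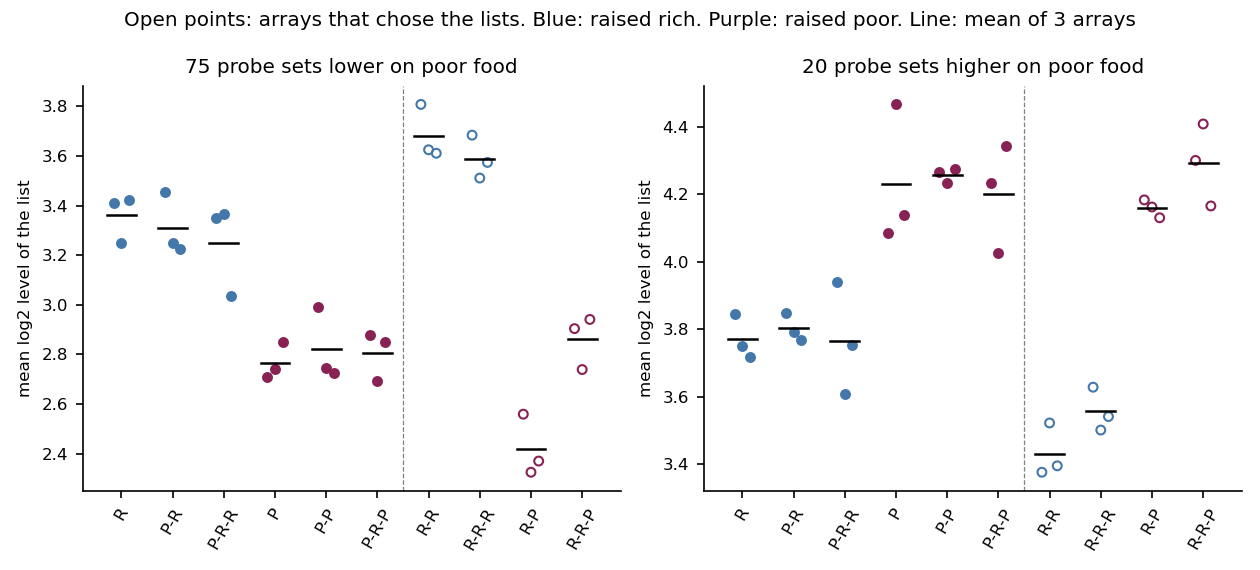
Mean log2 level per array of the 75 lowered (left) and 20 raised (right) poor-food probe sets in all 10 diet histories (points are arrays, lines are means of 3). Filled points left of the dashed line played no part in choosing the lists; P, P-P and P-R-P overlap in both panels, and open points chose the lists.

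Over all probe sets, 1 was called in P-P minus P and 0 in P-R-P minus P. At an unadjusted p under 0.05 there were 600 (3.92 percent) in P-P minus P and 730 (4.77 percent) in P-R-P minus P, where an even spread of p-values puts 765. In P minus R, the first poor generation against the rich one, 28 probe sets were called (0.183 percent) and 957 (6.25 percent) reached an unadjusted p under 0.05. Of the 600, 226 were higher and 374 lower in P-P, and of the 730, 249 were higher and 481 lower in P-R-P. This split follows the scaling of the arrays: it became 306 higher and 298 lower, and 370 and 346, after quantile normalization, and 342 and 244, and 392 and 293, after centring each array on its median. A difference of at least 1 was met by 8 probe sets in P-P minus P and 10 in P-R-P minus P, against 42 in P minus R.

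**Figure D4:**
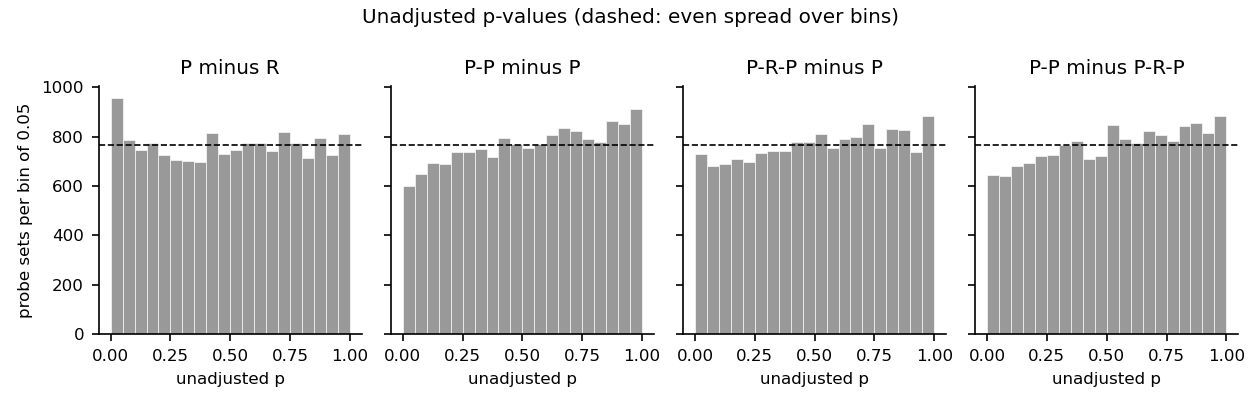
Number of probe sets per bin of unadjusted p (bins of 0.05) in P minus R, P-P minus P, P-R-P minus P and P-P minus P-R-P. The dashed line is an even spread over bins; the lowest bin holds 957, 600, 730 and 645 probe sets, above the line in P minus R only.

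The histograms of unadjusted p show the lowest bin below an even spread in both repeats. For P-R-P this depended on the arrays in the model. Without the 4 arrays that hold ovary transcripts or are low in cuticle transcripts, P-R-P minus P had 806 probe sets (5.26 percent). That is above the 765 of an even spread, while P-P minus P had 679 (4.44 percent). The median standard error of a difference was 0.161, and 0.185 among the 3958 probe sets with a mean of at least 2, whose intervals extended by a median of 0.381 to each side. For many genes, differences of that size or less could not be told from 0.

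The gene called in P-P minus P was tomb, which encodes a subunit of tMAC, the complex that switches on spermatocyte genes in the testis. It read 1.32, 1.13 and 1.40 in P, 0.49, 0.53 and 0.43 in P-P, and 0.59, 0.97 and 0.87 in P-R-P. The P arrays lie above all 6 arrays of the second poor food. The difference was -0.80 ± 0.12 in P-P (adjusted p = 0.00655) and -0.47 ± 0.12 in P-R-P (adjusted p = 0.91, limma). Averaged over P-P and P-R-P, tomb was lower than in P by 0.64 on the log2 scale (adjusted p = 0.0259), again the single gene called. That call was lost with the 9 arrays alone (adjusted p = 0.455), without the 4 arrays that stand apart (0.0806), after quantile normalization (0.152) or median centring (0.197), and with the trend and robust settings of limma (0.0807). It was also lost when P replicate 1 (0.076) or 3 (0.219), any of the 3 P-P replicates (0.0548 to 0.0979) or P-R-P replicate 1 (0.1) was left out.

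Among the 10 groups, P had the highest mean of tomb and P-P one of the lowest. In R it read 0.28, 0.63 and 0.54, so the mean of P-P equals that of R at 0.48, and P minus R was 0.80 ± 0.12 (adjusted p = 0.00164). The group with the next highest mean, 1.14, was R-R-P, F2 males on their line's first poor food, which read 1.09, 0.97 and 1.37 and overlaps P. R-P, F1 males on their line's first poor food, read 0.79, 0.61 and 0.77, all below P. R-P minus P was -0.56 ± 0.12 (adjusted p = 0.119, limma), beside -0.47 in P-R-P minus P. A level below P in F1 was thus not particular to the second poor food. The P-P arrays lie below every array of the other groups except those of R. All these levels lie near the array medians, where the array reads little signal. The call in P-P minus P was lost when P replicate 3 (adjusted p = 0.141), P-P replicate 1 (0.0588) or P-P replicate 3 (0.0976) was left out, and with only the 9 arrays in the model (0.442). The other 10 measured genes of the testis arrest group, which act in the same step of spermatocyte development, were not called. Their differences in P-P minus P ran from -0.27 for achi to 0.10 for aly.

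**Figure D5:**
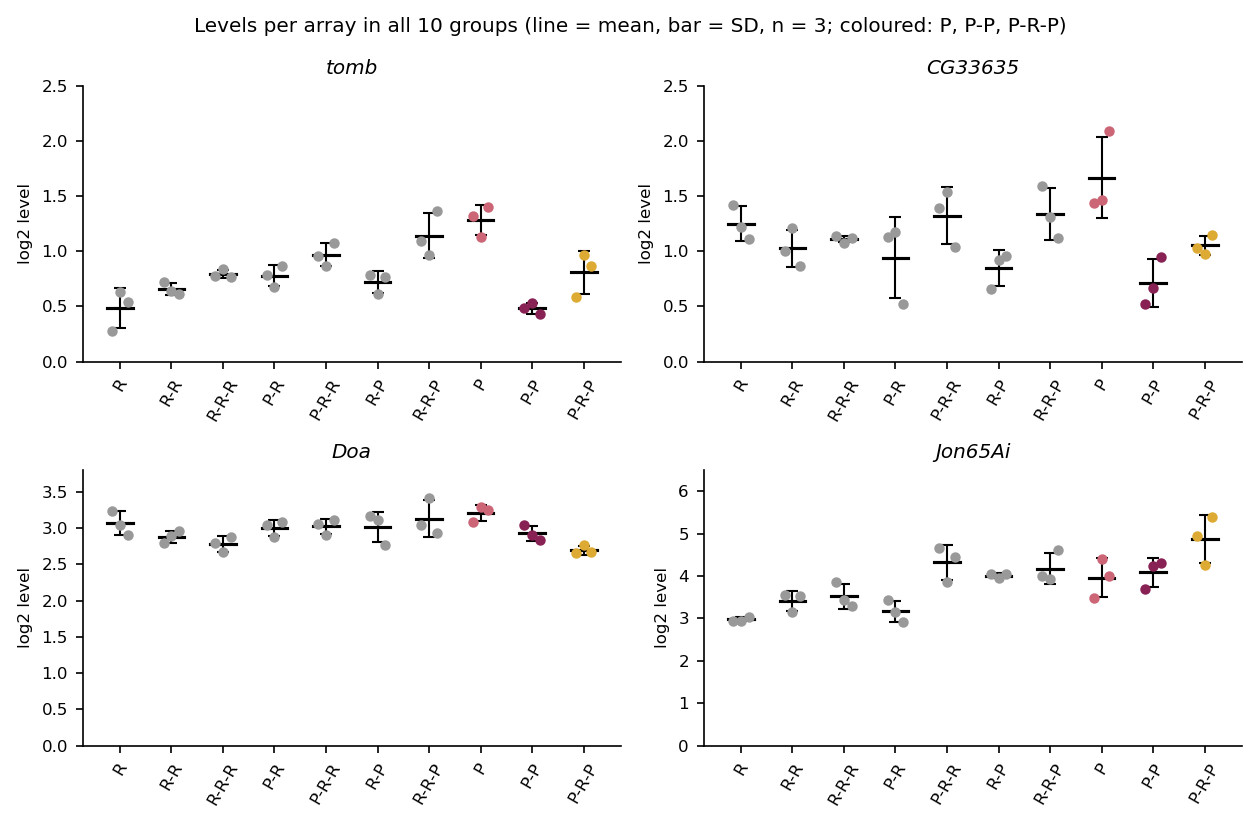
Log2 level on each array of tomb, CG33635, Doa and Jon65Ai in all 10 diet histories (3 arrays each, line = mean, bar = SD; P, P-P and P-R-P coloured). For tomb, P has the highest mean of all groups and P-P lies at the level of R.

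The genes next in rank in P-P minus P did not pass the adjusted threshold and are given as values. CG33635 read 1.44, 1.47 and 2.09 in P, 0.52, 0.67 and 0.95 in P-P, and 1.03, 0.98 and 1.15 in P-R-P. As the plot of all diet histories shows, the P arrays lie above both repeats. They also lie above R-P, on its line's first poor food, at 0.66, 0.92 and 0.96. R-R-P, at 1.59, 1.31 and 1.12, overlaps P. The difference in P-P minus P was -0.95 ± 0.18 (adjusted p = 0.126). Leaving out P replicate 1 brought it to an adjusted p of 0.046, and 7 probe sets were then called in place of 1. SA2, which encodes a cohesin subunit, gave -0.46 in P-P and -0.48 in P-R-P, Rab9Db, of the Rab GTPase family, -0.71 and -0.22, CG9706 -0.38 and -0.02, and mora -0.49 and -0.26. Higher in P-P with the smallest p-values were CG6553 (0.59), LUBEL, a linear ubiquitin ligase gene (0.53), sand, a potassium channel gene (0.48), CG42749 (0.47), CG3701 (0.44) and Gdap1 (0.43). All of these except LUBEL read below the array medians in P, where the array reads little signal.

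In P-R-P minus P the smallest adjusted p was 0.91. Doa, which encodes a kinase that acts on splicing factors, read 3.08, 3.29 and 3.25 in P, 3.04, 2.91 and 2.83 in P-P, and 2.65, 2.76 and 2.67 in P-R-P. The P-R-P arrays lie below all 6 others, and its difference from P was -0.51 ± 0.13. With it came SA2, CG32985 (-0.74), tomb, se, an eye pigment gene (-0.57), and Sps2, a selenophosphate synthetase gene (-0.52). The genes higher with the smallest p-values were CG2750 (0.66), CG15097 (0.56), the odorant receptor gene Or94b (0.56), CG43351 (0.52), Jon65Ai (0.90) and the metallothionein gene MtnE (0.52). All of these except Jon65Ai read below the array medians in P, where the array reads little signal. In the average of both repeats, 189 probe sets (1.23 percent) were higher and 463 (3.02 percent) lower at an unadjusted p under 0.05. The genes following tomb were CG33635 (-0.78), SA2 (-0.47), CG8677 (-0.65), PpD3 (-0.38) and be (-0.36) on the lower side. On the higher side they were sand (0.45), CG2750 (0.43), CG9609 (0.69), CG8569 (0.52), CG13075 (0.54) and CG43351 (0.40). Of all probe sets, 3.7 percent lay with all 3 P-P arrays above P and 5.3 percent with all 3 below. For P-R-P these shares were 3.16 and 5.96 percent.

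Gene lists for metabolism, tissues and other processes had medians close to 0 on the second poor food. Of the 29 lists with at least 5 measured genes, 28 had a median within 0.1 of 0 in P-P minus P and 25 in P-R-P minus P. Medians ran from -0.11 to 0.04 and from -0.18 to 0.12. The testis list contains tomb, and no other member of any list was called in either comparison.

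Among nutrient-sensing genes, 0 of 22 were called. At an unadjusted p under 0.05 there were 0 in P-P minus P, against 3.92 percent of all probe sets. In P-R-P minus P there were 2, both lower, against 3.14 percent of all probe sets lower. That is a larger share, but of only 2 genes. The 2 were Akt, the kinase downstream of the insulin receptor (-0.09 and -0.46), and Ilp2, an insulin-like peptide made in the brain (-0.28 and -0.50). The list's median was -0.03 and -0.12. The insulin receptor gene InR gave -0.13 in both, and foxo, the transcription factor that insulin signalling holds back, -0.22 and -0.28. Of the 35 lipid genes, 1 in each comparison reached an unadjusted p under 0.05, a share no higher than that of all probe sets. The lipase gene bmm gave 0.01 and -0.30 and the fatty acid synthase gene FASN1 -0.05 and -0.20. The 30 amino acid enzymes had medians of -0.08 and -0.11, with 21 and 24 members below 0. The 74 genes of oxidative phosphorylation had medians of 0.01 and 0.03, and the 42 cytosolic ribosomal protein genes -0.04 and -0.04. All 21 muscle genes lay below 0 in P-R-P minus P, with a median of -0.10, and 10 of 21 in P-P minus P. Brightly read genes were below 0 more often than not in that comparison: 2524 of the 3958 with a mean of at least 2, with a median of -0.06.

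Of the 162 detoxification genes, 6 reached an unadjusted p under 0.05 in P-P minus P, 1 higher and 5 lower, and 11 in P-R-P minus P, 9 higher and 2 lower. Over all probe sets these shares were 1.48 percent higher and 2.44 percent lower in P-P minus P, and 1.63 and 3.14 percent in P-R-P minus P. The P-P count is thus near that of all probe sets, while the 9 higher in P-R-P are a larger share. The medians were -0.01 and 0.01. The 82 P450 genes gave -0.02 and -0.01 and the 35 glutathione S-transferase genes 0.00 and 0.04. Of the 9 higher in P-R-P, 3 were glutathione S-transferase genes, 2 P450 genes, 1 a UDP-glycosyltransferase gene and 3 metallothionein genes. The metallothioneins, small proteins that bind metal ions, stood further from 0 in P-R-P. All 5 lay above P, with a median of 0.42, and 3 reached an unadjusted p under 0.05 in that direction, against 1.63 percent of all probe sets. In P-P minus P their median was 0.11. MtnA read 8.08, 8.10 and 7.86 in P, 8.08, 8.01 and 8.27 in P-P, and 8.30, 8.24 and 8.77 in P-R-P, a difference of 0.42 from P. Males on their line's first poor food in later generations read as high: MtnA was 8.47, 8.39 and 8.46 in R-P (0.43 above P, unadjusted p = 0.00246, limma) and 8.33, 8.31 and 8.45 in R-R-P (0.35 above P, unadjusted p = 0.0107). MtnE, at 0.25, 0.96 and 0.89 in P-R-P and 0.06, 0.14 and 0.34 in P, read 0.66, 0.62 and 0.60 in P-R-R, the rich-raised F2 males of the same line. MtnA, in contrast, read 7.83, 7.89 and 7.68 in P-R-R, below all P-R-P arrays and overlapping P. In P-R-P minus P-R-R the 5 genes had a median of 0.12. There 2 were higher at an unadjusted p under 0.05, against 3.39 percent of all probe sets. Of the 5, 1 was called higher, and 0 without P-R-R replicate 2. For MtnD, the difference of 1.12 rests on 1 array: it read 2.57, 2.88 and 4.63 in P-R-P, against 2.02, 2.63 and 2.06 in P, and reached 3.95 and 3.90 on 2 arrays of P-R-R.

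Among digestive genes, the Jonah serine proteases, which cleave dietary protein in the midgut, also stood further from 0 in P-R-P than in P-P. The 14 Jonah genes had a median of 0.03 in P-P minus P and of 0.38 in P-R-P minus P, where 5 reached an unadjusted p under 0.05, all higher, against 1.63 percent of all probe sets. Rich-raised P-R-R males lay as far above P: their median difference was 0.43, with 6 of 14 higher at an unadjusted p under 0.05, against 4.15 percent of all probe sets. Both comparisons share the P arrays. P-R-P minus P-R-R had a median of 0.08, with 2 of 14 higher and 1 lower, against 3.39 and 5.43 percent. Without P-R-R replicate 2, which holds ovary transcripts, the medians were 0.54 and 0.07. Jon65Aiv, for example, read 7.89, 7.52 and 7.74 in P, 8.12, 8.14 and 8.50 in P-R-P and 8.85, 8.76 and 8.04 in P-R-R, so both F2 groups of the line lie above P. None was called, and the medians stayed at 0.39 and 0.42 after quantile normalization and centring. Jon65Ai read 3.49, 4.39 and 4.01 in P, 3.70, 4.24 and 4.31 in P-P, and 4.95, 4.26 and 5.38 in P-R-P. Of the P-R-P arrays, 2 lie above P and 1 within it, and the difference was 0.90 ± 0.25 (adjusted p = 0.91). Jon25Bi read 5.40, 6.20 and 6.70 in P and 7.15, 7.08 and 7.30 in P-R-P, a difference of 1.08 with groups that do not overlap. In R-R-P, F2 males on their line's first poor food, Jon25Bi read 7.11, 6.45 and 6.87, with 2 of the 3 arrays above P. Jon25Bii (0.79), Jon65Aiv (0.54) and Jon65Aiii (0.51) were the others. In the line kept on rich food, R-R-R minus R was 0.80 for Jon25Bi and 0.54 for Jon65Ai, with no call. There it was 0.18 for Jon25Bii, 0.003 for Jon65Aiv and -0.15 for Jon65Aiii. For the first 2 genes a later generation thus read higher without poor food as well. The remaining digestive genes lay closer to 0: the 13 trypsins had medians of 0.07 and 0.01 and the 14 maltases and amylases -0.13 and 0.11.

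The 12 circadian clock genes had medians of -0.10 and -0.18, with 8 and 11 members below 0, where 8213 and 8581 of all 15309 probe sets were. At an unadjusted p under 0.05 there were 3 in P-P minus P, all lower, and 1 in P-R-P minus P, against 2.44 and 3.14 percent of all probe sets. They were the neuropeptide receptor gene Pdfr (-0.41 and -0.49) and, in P-P, the clock transcription factor gene Pdp1 (-0.35) and the photoreceptor gene cry (-0.35). After quantile normalization the medians were -0.05 and -0.13. Rich-raised P-R-R minus P had a median of 0.07. P-R-P minus P-R-R had one of -0.25, with 4 of 12 lower at an unadjusted p under 0.05, against 5.43 percent of all probe sets. None was called. The labels give no time of day for the freezing.

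The direct repeat and the repeat after a rich generation were then compared with each other. P-P minus P-R-P gave 0 calls with limma, and 645 probe sets (4.21 percent) at an unadjusted p under 0.05, 359 (2.35 percent) higher and 286 (1.87 percent) lower in P-P. In 4.87 percent of all probe sets the 3 P-P arrays lay above the 3 of P-R-P, and in 3.95 percent below. The smallest adjusted p was 0.999. Highest in P-P by p were CG3701 (0.49), Crtc, a coactivator of CREB (0.59), Gdap1 (0.47), barr, a condensin subunit gene (0.55), Glg1 (0.53) and l(2)37Cd (0.44). Lowest were ranshi (-0.50), Or94b (-0.57), the glycosyltransferase gene Ugt35C1 (-0.53), the glutamate receptor gene Ekar (-0.58), CG14352 (-0.57) and mRpL16, of the mitochondrial ribosome (-0.52). CG3701, Gdap1, barr and l(2)37Cd in P-R-P, and ranshi, Or94b, Ugt35C1, CG14352 and mRpL16 in P-P, read below the array medians. The Jonah genes had a median of -0.35 and the metallothioneins of -0.46 in this direct comparison, with 4 of 14 and 4 of 5 lower at an unadjusted p under 0.05, against the 1.87 percent above. The 75 lowered and 20 raised poor-food probe sets had medians of -0.01 and 0.12.

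A line kept on rich food shows how far generations differ without poor food. R-R minus R gave 1 call (0.00653 percent), Lsp2, at -2.37 (adjusted p = 0.0157). R-R holds the 2 arrays that are low in Lsp2. R-R-R minus R gave 0 calls, with 1237 probe sets (8.08 percent) at an unadjusted p under 0.05. The test of the difference between the lines, P-P minus P against R-R minus R, gave 0 calls and 651 probe sets (4.25 percent) at an unadjusted p under 0.05. Its smallest adjusted p was 0.0537, for tomb (-0.97 ± 0.17) and for Rab9Db (-1.40 ± 0.25). Rab9Db read 1.19, 1.15 and 1.28 in P and 0.30, 0.79 and 0.40 in P-P, but 1.21, 0.90 and 0.66 in R and 1.56, 1.45 and 1.82 in R-R, so P-P lies below P and R-R above R. With 1 array left out this test gave 0 to 11 calls. The 11 appeared without R-R replicate 2, which leaves R-R with the 2 arrays low in cuticle and Lsp2 transcripts. The same test for F2, P-R-P minus P against R-R-R minus R, gave 0 calls and a smallest adjusted p of 0.708.

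Comparison within a generation sets the second poor food against the first with the flies' own food equal. In F2, P-R-P minus R-R-P gave 0 calls, with 785 probe sets (5.13 percent) at an unadjusted p under 0.05. In F1, P-P minus R-P gave 2 calls (0.0131 percent), CG9568 and CG5399. Both are on the poor-food list, which was chosen in part on the R-P arrays used here as the reference, so their place on it is not independent of this comparison. CG9568 read 5.64, 4.58 and 4.56 in P-P and 3.02, 2.82 and 3.26 in R-P, a difference of 1.89 ± 0.29 (adjusted p = 0.0085). The 2 groups do not overlap, while P, at 4.07, 3.52 and 4.52, lies between them. CG5399 read 7.20, 6.63 and 6.65 in P-P and 6.11, 5.37 and 5.27 in R-P, a difference of 1.24 ± 0.22 (adjusted p = 0.0408). Without R-P replicate 2, the array with ovary transcripts, the adjusted p was 0.136 and 0.385, and without P-P replicate 1 it was 0.112 and 0.465. CG5399 also lost its call without R-P replicate 3, P-P replicate 2 or P-P replicate 3, and kept it only without R-P replicate 1. Against P, the same genes in P-P gave 0.89 and 0.46 with no call.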

How the data were processed

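RNA of 30 samples was measured on Affymetrix Drosophila Gene 1.0 arrays, and 9 samples form the 3 groups compared. Per the submitters' processing notes, GCRMA (background correction by probe sequence, normalization between arrays and summary of probes) produced the values that the authors deposited, 1 for each array and probe set, taken here as log2. Its version is not stated. Values ran from -0.56 to 10.78. With 3 arrays in each group, precision is limited by that number. Of 15309 probe sets, 13441 had 1 gene symbol in the platform annotation, 555 several and 1313 none, and the last 2 kinds were tested but not named. No 2 arrays held the same values (smallest mean absolute difference 0.179).

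All 10 group means were fitted in R 4.3.3 by lmFit and eBayes of limma 3.58.1 (two-sided, no covariate, no filter), with Benjamini-Hochberg adjustment. The poor-food list came from a separate fit to 12 arrays. The model was tested on simulated data. The comparisons with R and P-R-R were added, in the same model, after the data were seen. The members of every list, and the genes fixed for description, were chosen with earlier results of these data known. Named genes were the 12 largest called in each direction, filled to 6 by the smallest p, and in the other contrasts up to 6 called. To these were added called list members, the 6 lowest and 6 highest poor-food genes and 10 reference genes (CG16898, Cyp6d2, AOX1, Arc1, Lsp2, Jon25Biii, Yp1, Sodh1, Apoltp and mag). Members of families and lists named beyond that rule were chosen after their values were seen. Yp1, a yolk protein gene, differed from P by 0.01 and -0.03. Its standard error of 1.01 came from the arrays with ovary transcripts (0.15 without the arrays that stand apart).

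Alternatives were other arrays in the model, quantile normalization, median centring, a mean of at least 2, eBayes with trend and robust settings, a replicate block and leaving out single arrays. Same-numbered replicates of the 3 groups had correlations of -0.11 to 0.05 between their deviations, so the numbers were not taken to pair samples.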

Additional observations from a re-analysis of the deposited data

How the results depend on the processing

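The number of probe sets called in P-P minus P was 1. It was 0 with only the 9 arrays of the 3 groups and 0 among probe sets with a mean of at least 2, which leaves tomb out, 5 with the replicate block, and 0 to 7 with 1 array left out. Of these, P replicate 3, P-P replicate 1 and P-P replicate 3 gave 0, P replicate 2 gave 2 and P replicate 1 gave 7. The average of both repeats gave 1 call. It gave 0 with the 9 arrays, without the 4 arrays that stand apart, after quantile normalization, after median centring, with a mean of at least 2 and with the trend and robust settings, 5 with the replicate block, and 0 to 2 with 1 array left out. P-R-P minus P gave 0 calls, and 0 to 1 with 1 array left out (1 without P-R-P replicate 3). P-P minus R-P gave 2, but 0 with only the groups compared and without the arrays that stand apart, and 0 to 5 with 1 array left out (5 without R-P replicate 1, 1 without R-P replicate 3 or P-P replicate 2, 0 without R-P replicate 2 or P-P replicate 1). Without P-P replicate 3 it gave 2, CG9568 and Mal-A3. P-R-P minus R-R-P gave 0 to 1 (1 without R-R-P replicate 3), and the F1 test of the lines 0 to 11 (1 without R replicate 1 or P-P replicate 2, 11 without R-R replicate 2). The poor-food list fell from 95 to 38 probe sets without its 3 arrays that stand apart. The median of its raised members in P-R-P minus P ranged from -0.13 to 0.13 with 1 array left out, the highest without P replicate 2. Replicate numbers do not pair these samples, and under the block the counts of P-R-P minus P and P-P minus P-R-P stayed at 0 and that of P-P minus R-P was 3. Of 1106 values of single genes under the alternatives, 26 lost a call, 1 gained one, 0 called values changed sign and 48 uncalled values did. The causes were not tested. Signal limits tomb and other dim genes, read near the array medians.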
